A study of Caenorhabditis elegans with 2 samples.

Results

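The regions described here are LET-607 binding candidates whose summit lay within 500 bp of a miRNA, snRNA, snoRNA or rRNA gene and not within 500 bp of a tRNA gene. They were chosen by position alone, from the pooled list of the series and the Ensembl annotation of the WBcel235 assembly (ce11). They numbered 495 of 30000 pooled regions, or 1.65%, with 377 different nearest genes. By nearest gene, 300 were snoRNA regions, 125 were miRNA regions, 70 were snRNA regions and none was an rRNA region. A further 9 regions near such genes were left out because a tRNA gene was also within 500 bp.

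The study mapped the bZIP transcription factor LET-607 in Caenorhabditis elegans by chromatin immunoprecipitation and sequencing (ChIP-seq) with an antibody against GFP. The worms were strain YL651, which carries let-607(tm1423), unc-119(ed3) and the integrated transgene vrIs121, a LET-607 fosmid with unc-119(+). The transgenic protein has a C-terminal GFP-FLAG tag, so all bound protein measured here was the tagged fosmid product, made in worms with the let-607 mutation. Mixed-sex young adults of 49.5 hours, grown from starved first-stage larvae after bleaching, gave 1 group of 2 biological replicates, and no other condition exists to compare. Chromatin was made from whole organisms and sheared to between 200 and 800 bp, so strong binding in few cells and weak binding in many cannot be told apart.

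Small nuclear RNAs (snRNAs) form the core of the spliceosome, and in nematodes the spliced leader RNAs SL1 and SL2, which are annotated among them, donate a short leader to the 5′ end of many mRNAs. SL2 is used mainly on downstream genes of operons. Small nucleolar RNAs (snoRNAs) guide the modification of ribosomal and other RNAs, and many lie in introns of host genes. MicroRNAs (miRNAs) are cut from hairpins and repress mRNAs that pair with their seed. Some small RNA genes have internal promoters of the tRNA kind, in which an A box and a B box are bound by the RNA polymerase III factor TFIIIC, while most snRNA genes are read from upstream elements bound by the SNAPc complex.

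The sequences that the results below turn on come first. For 7 snoRNA genes with a region in the optimal list, the 80 bases before and the first 10 bases of the gene are given on the gene's strand, because 9 letters typical of a tRNA B box (GTTCGANNC, in capitals) began just before the annotated snoRNA. All sequences were read from the RefSeq assembly of the same build.
M106.6, chrII:10840237-10840326, plus strand: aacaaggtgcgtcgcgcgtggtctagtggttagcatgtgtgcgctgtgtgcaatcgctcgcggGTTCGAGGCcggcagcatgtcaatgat
F30H5.4, chrIII:502724-502813, plus strand: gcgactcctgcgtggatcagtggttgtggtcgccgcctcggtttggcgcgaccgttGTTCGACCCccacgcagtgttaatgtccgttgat
C05D2.15, chrIII:5602170-5602259, minus strand: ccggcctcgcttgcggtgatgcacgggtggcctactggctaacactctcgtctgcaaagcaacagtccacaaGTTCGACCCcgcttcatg
Y38F2AR.14, chrIV:2408626-2408715, minus strand: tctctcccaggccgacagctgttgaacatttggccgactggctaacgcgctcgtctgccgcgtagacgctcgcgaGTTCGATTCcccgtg
F32E10.10, chrIV:7574042-7574131, plus strand: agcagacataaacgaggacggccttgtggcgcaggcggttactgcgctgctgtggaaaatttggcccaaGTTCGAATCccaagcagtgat
F12F6.11, chrIV:11549855-11549944, minus strand: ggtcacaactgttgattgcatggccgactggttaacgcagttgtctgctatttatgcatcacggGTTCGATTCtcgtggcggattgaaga
Y43F8C.22, chrV:19643178-19643267, minus strand: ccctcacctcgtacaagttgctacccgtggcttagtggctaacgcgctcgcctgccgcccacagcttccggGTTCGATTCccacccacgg

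Sequences are given for 5 of the 7 SL2 RNA genes with an optimal region within 500 bp, sls-2.4 not among them. The 70 bases before the gene are in lower case. The first 22 bases of the gene, where the leader begins, are in capitals.
sls-2.1, chrII:5844795-5844886, plus strand: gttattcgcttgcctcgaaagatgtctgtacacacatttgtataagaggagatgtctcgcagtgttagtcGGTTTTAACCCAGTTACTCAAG
sls-2.2, chrII:5543528-5543619, plus strand: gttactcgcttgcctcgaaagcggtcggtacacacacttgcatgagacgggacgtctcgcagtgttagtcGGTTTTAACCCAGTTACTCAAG
sls-2.8, chrIII:12250395-12250486, plus strand: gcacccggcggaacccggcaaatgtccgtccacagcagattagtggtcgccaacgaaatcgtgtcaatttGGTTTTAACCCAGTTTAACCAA
sls-2.15, chrIII:11090940-11091031, plus strand: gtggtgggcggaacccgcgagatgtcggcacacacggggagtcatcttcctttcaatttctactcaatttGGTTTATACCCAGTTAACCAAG
sls-2.5, chrIII:7140532-7140623, minus strand: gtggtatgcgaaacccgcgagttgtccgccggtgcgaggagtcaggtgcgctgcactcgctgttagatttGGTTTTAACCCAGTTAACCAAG

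For 5 miRNA genes with optimal regions, 3 that share the seed of mir-51 to mir-56 together with mir-80 and mir-58.1, the mature arm is given with its seed (bases 2 to 8) in capitals. The arms of the other optimal miRNA genes are not shown.
mir-51: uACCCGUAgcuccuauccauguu
mir-53: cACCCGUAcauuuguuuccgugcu
mir-54: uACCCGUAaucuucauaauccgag
mir-80: uGAGAUCAuuaguugaaagccga
mir-58.1: uGAGAUCGuucaguacggcaau

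The deposited data are lists of regions, each with a summit and the authors' own signal value, which has no unit and is used here only to rank and describe regions within a list. Replicate 1 had 30000 candidate regions and replicate 2 had 26493. The optimal list, which the authors thresholded by the irreproducible discovery rate (IDR), held 1488 regions. All 1488 were the strongest of the pooled list by signal, down to 111, so a place in the optimal list and a high signal are the same ordering and not separate evidence. Read depth is unknown because no counts came with the lists, and no control library was used here. Shares are given with 95% Wilson intervals, which cover no more than counting error. Since 82 of the 495 regions overlapped their neighbour on the left, the 495 made up 413 stretches.

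Of the 495 regions near small RNA genes, 108 were in the optimal list, or 21.8% (interval 18.4 to 25.7), beside 4.96% of all pooled regions. The share was 26.0% for snoRNA regions (78 of 300, interval 21.4 to 31.2). It was 21.4% for snRNA regions (15 of 70, interval 13.4 to 32.4) and 12% for miRNA regions (15 of 125, interval 7.41 to 18.9). The snoRNA share was the highest of these, but its interval overlapped that of the snRNA regions, and the miRNA interval overlapped that of the snRNA regions. Regions near tRNA genes had 25.5% (143 of 560), close to the snoRNA value, and the 28945 regions near none of these genes had 4.27%. Regions near small RNA genes made up 7.26% of the optimal list, of which snoRNA regions were 5.24% and miRNA and snRNA regions 1.01% each.

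The median signal was 64.2 for snoRNA regions, 60.6 for snRNA regions and 57.5 for miRNA regions, against 45.2 over all pooled regions. The middle 50% of snoRNA regions ran from 42.5 to 114. Most regions of each biotype therefore lay below the lowest optimal value, and the range had a long upper tail, to 1609 for snoRNA, 638 for miRNA and 330 for snRNA regions. Within the optimal list the biotypes lay close to the other regions. The median there was 161 for snoRNA, 182 for snRNA, 175 for miRNA and 161 for the regions near no such gene. Of the 100 strongest pooled regions 4 were among the 495, and of the 300 strongest 19 were, beside 1.65% of all pooled regions. The members just above the lowest optimal value were at F09G2.14 (112) and C17H12.36 (112), and those just below it were at mir-229 (110.2) and Y49E10.36 (110.1).

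**Figure D1:**
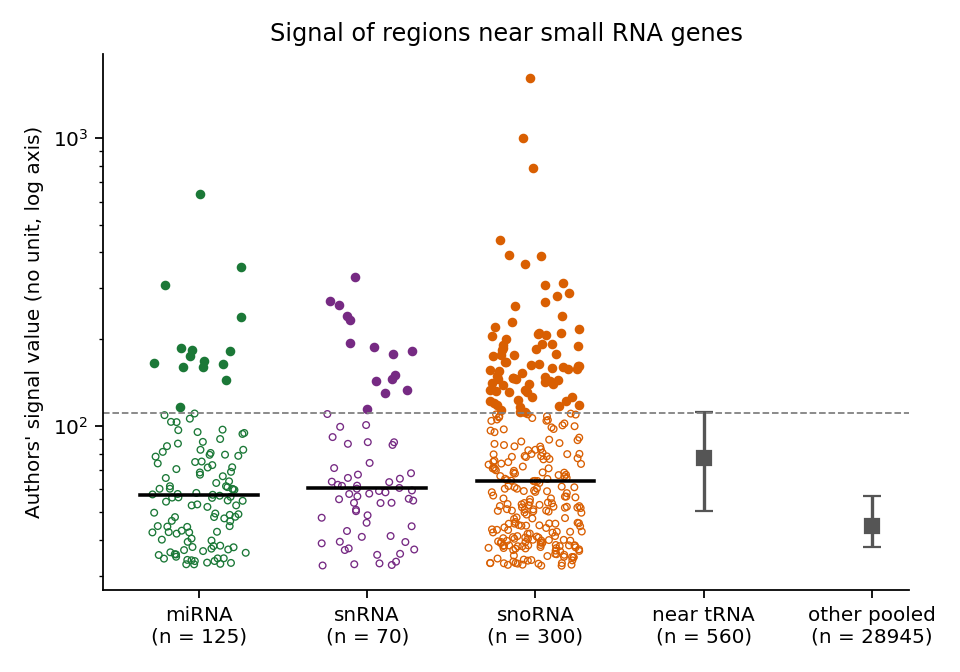
Authors' signal value (log axis) of each region near a miRNA, snRNA or snoRNA gene. Filled points are in the optimal list, open points are not, black bars are medians, squares with bars are medians with quartiles of regions near tRNA genes and of other pooled regions, and the dashed line is the lowest optimal value, 111. Medians were 57.5, 60.6 and 64.2 for miRNA, snRNA and snoRNA regions and 44.8 for the others.

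Counted over genes, the kinds of small RNA differed in how many had a summit within 500 bp. Of 346 snoRNA genes, 232 had a pooled region and 80 an optimal one (23.1%, interval 19.0 to 27.8). Of 129 snRNA genes, 61 had a pooled region and 13 an optimal one (10.1%, interval 5.98 to 16.5). Of 261 miRNA genes, 115 had a pooled region and 20 an optimal one (7.66%, interval 5.02 to 11.5). Neighbouring genes can share a region in these counts, which also take in regions within 500 bp of a tRNA gene. Without such regions 230 snoRNA, 59 snRNA and 113 miRNA genes had a pooled region, and 79, 13 and 20 an optimal one. For comparison, 164 of 612 nuclear tRNA genes (26.8%) and 67 of 15363 piRNA genes (0.436%) had an optimal region.

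Among the snRNA genes, those of SL2 RNA carried many of the regions. Of 18 sls-2 genes, 15 had a pooled region and 7 an optimal one (38.9%, interval 20.3 to 61.4). The 7 include sls-2.3, which counted through the optimal region nearest to sls-2.2. The region nearest to sls-2.3 itself was not optimal (signal 71.2). Without regions near a tRNA gene, 14 had a pooled region and 7 an optimal one. None of the 12 sls-1 genes, which encode SL1 RNA, had a region of either kind (interval up to 24.2%). None of the 20 nuclear rRNA genes had one (interval up to 16.1%), and 16 of these were rrn-4 genes, which encode 5S rRNA. These genes are repeated, and the treatment of reads that match several places is not stated by any label or header, and its part in the missing regions was not tested.

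**Figure D2:**
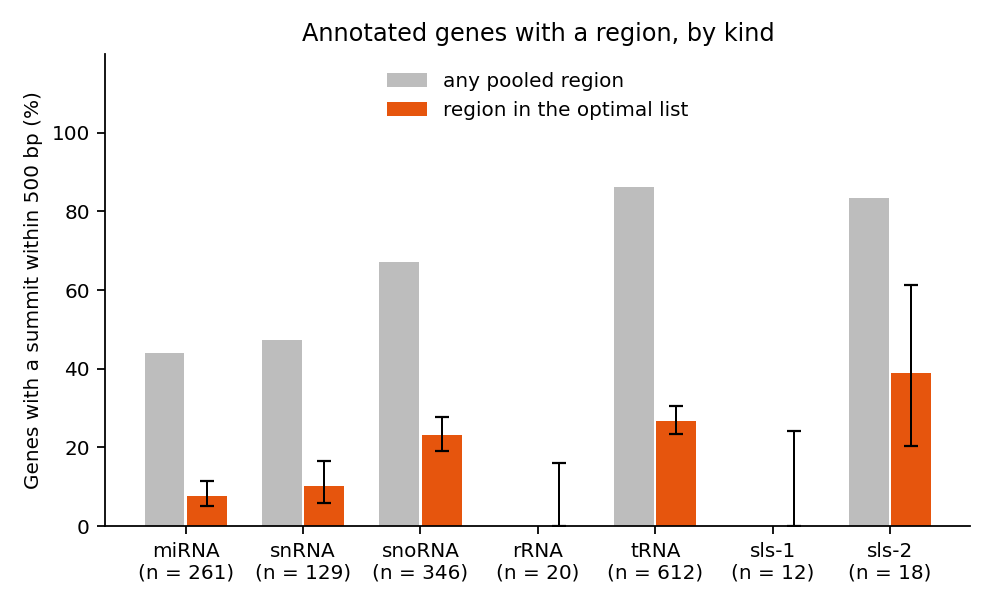
Share of annotated genes with a summit within 500 bp, by kind of gene, with regions near tRNA genes included. Grey bars count any pooled region, orange bars count regions in the optimal list with 95% Wilson intervals, and n is the number of nuclear genes, with sls-1 and sls-2 also included among snRNA genes. The orange bar is 38.9% for sls-2, 23.1% for snoRNA and 7.66% for miRNA genes, and no region lay at sls-1 or rRNA genes.

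The snoRNA share was high both inside and outside the promoters of coding genes. A coding promoter window was defined as 1000 bp upstream to 200 bp downstream of any annotated start of a protein-coding gene. It held 34.9% of the summits (173 of 495), beside 31.7% of all pooled summits. Among optimal regions it held 41.7% of those near small RNA genes (45 of 108) and a larger share of those near none (718 of 1237). Outside the window 24.2% of snoRNA regions were optimal (46 of 190, interval 18.7 to 30.8), against 29.1% inside it (32 of 110, interval 21.4 to 38.2). Regions near no small RNA or tRNA gene went from 2.63% outside to 7.80% inside. For snRNA regions the share was 16.7% outside and 28.6% inside, and for miRNA regions 11.1% outside and 14.3% inside. The intervals of inside and outside overlapped in each of the 3 biotypes.

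**Figure D3:**
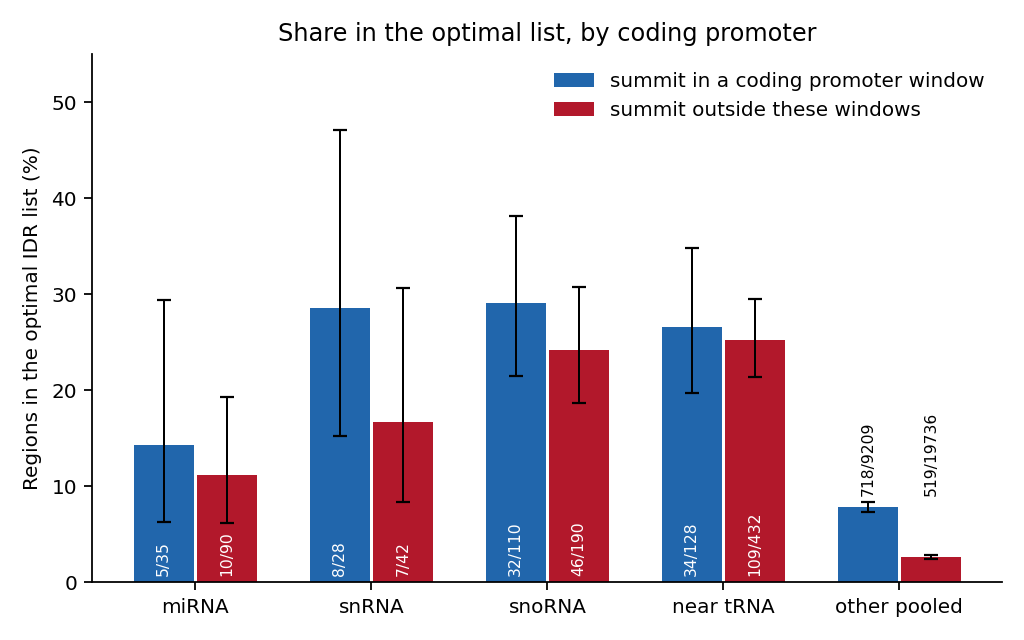
Share of regions in the optimal list, split by whether the summit lay in a coding promoter window (blue) or not (red), with 95% Wilson intervals and the counts printed on the bars. Outside the windows the share was 24.2% for snoRNA regions and 2.63% for regions near no small RNA or tRNA gene.

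By annotation, 221 of the 495 summits were intergenic, 167 intronic, 76 in coding exons, 22 in 3′ UTRs and 9 in 5′ UTRs of coding genes. Among snoRNA regions the optimal shares by host gene ran from 19.0% to 32.1%, on groups of 24 to 128 regions. The optimal share was 32.1% (34 of 106) where the snoRNA gene lay outside coding genes. It was 22.7% (29 of 128) in an intron of a gene on the same strand and 29.2% (7 of 24) in an intron on the other strand. It was 19.0% (8 of 42) where the snoRNA gene overlapped a coding exon. The intervals of these shares were wide and overlapped each other, so their order is not read. Ribosomal protein genes, common hosts of snoRNAs, held the nearest gene of 17 regions. Of these 17, 3 were optimal, beside 26.0% of all snoRNA regions. The 3 were at Y24D9A.9 in rpl-7A (signal 281), D1007.20 in rpl-24 (269) and F54E7.10 in rps-12 (217). All 3 summits lay in a coding promoter window, but so did 14 of the 17. The ribosomal protein hosts were singled out after their values were seen.

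Optimal snoRNA regions clustered just before the annotated 5′ end of the snoRNA. Of 71 snoRNA regions with a summit 1 to 100 bp upstream, 44 were optimal (62.0%, interval 50.3 to 72.4), with a median signal of 131. Next came the summits 0 to 99 bp downstream of the 5′ end, with 13 of 39 optimal (33.3%, interval 20.6 to 49.0). Of 30 summits 100 to 199 bp downstream 7 were optimal (23.3%), and of 61 summits at least 201 bp upstream 9 were (14.8%). Of 17 summits 101 to 200 bp upstream 1 was optimal, and of 82 summits at least 200 bp downstream of the 5′ end 4 were (4.88%). The stretch just upstream thus held 56.4% of the optimal snoRNA regions (44 of 78) and 12.2% of the others (27 of 222). The median optimal summit was 39 bp upstream of the 5′ end, and the median of the others was 53 bp downstream.

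The same order was present wherever the snoRNA genes lay. In introns on the same strand, 58.6% of summits in the upstream 100 bp (17 of 29) and 12.1% of those elsewhere (12 of 99) were optimal. Outside coding genes the shares were 59.3% (16 of 27) and 22.8% (18 of 79). Outside coding promoter windows they were 63.6% (28 of 44) and 12.3% (18 of 146), so the upstream shares were as high away from coding starts. Each replicate list alone also had it. Among the strongest 1488 regions of a replicate were 56.9% of upstream snoRNA summits in replicate 1 (41 of 72) and 45.6% in replicate 2 (31 of 68). Elsewhere the shares were 19.0% (40 of 210) and 16.3% (33 of 202). The position bins were set after the summits had been seen, and no test was run on them.

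**Figure D4:**
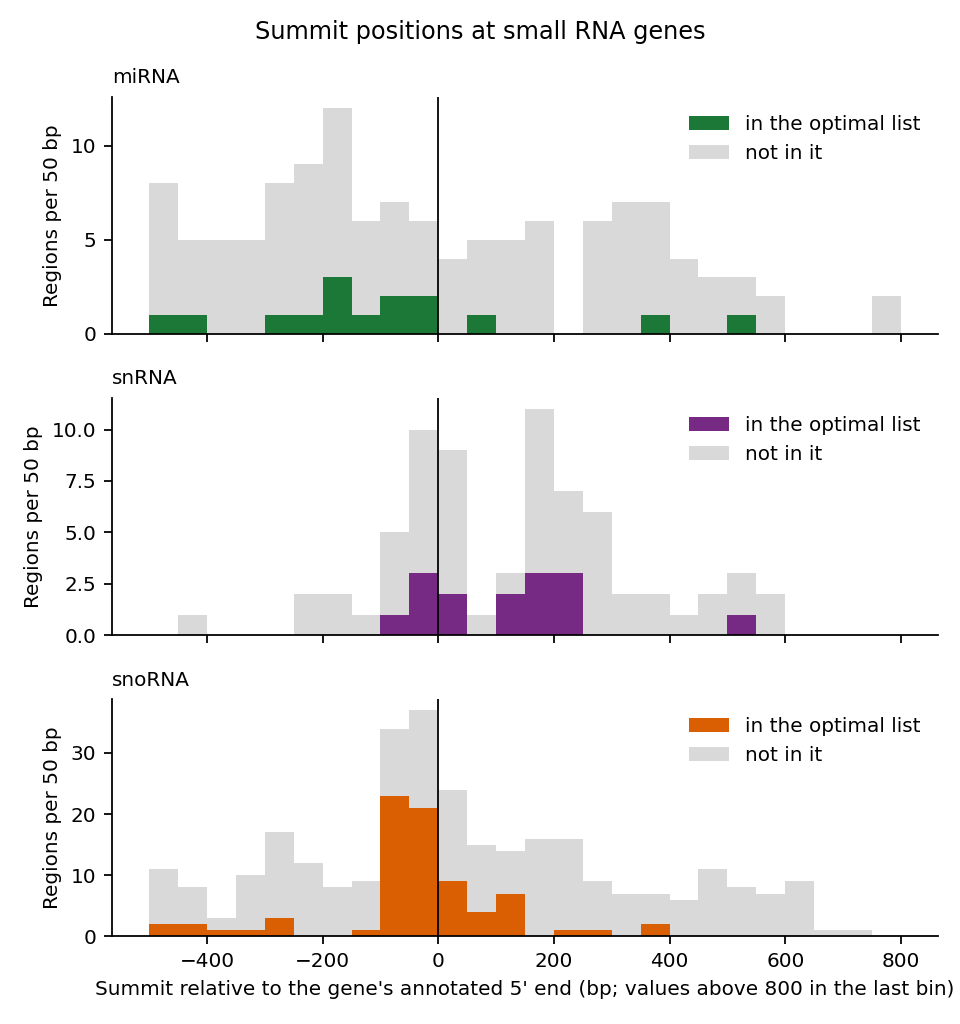
Summit positions relative to the annotated 5′ end of the nearest gene, in bins of 50 bp, with negative values upstream. Coloured bars are regions in the optimal list and grey bars the others. The 100 bp before the 5′ end held 44 of 78 optimal snoRNA regions, 4 of 15 optimal snRNA regions and 4 of 15 optimal miRNA regions.

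Among miRNA regions 4 of 13 summits in the upstream 100 bp were optimal (30.8%, interval 12.7 to 57.6), against 11 of 112 elsewhere (9.82%), the same order as for snoRNA regions on few regions. Among snRNA regions the counts were 4 of 15 (26.7%, interval 10.9 to 52.0) and 11 of 55 (interval 11.6 to 32.4%), with overlapping intervals. Whether the biotypes differ in this was not tested. Optimal snRNA summits had a median 123 bp downstream of the 5′ end, and 4 of 15 were upstream, while 30.0% of all snRNA summits were upstream. Of 15 optimal miRNA summits 12 were upstream of the annotated hairpin, with a median 125 bp upstream, against 59 of the 110 that were not optimal (53.6%). For most miRNA genes the annotated 5′ end is that of the hairpin and not of the primary transcript, so this distance is no distance to a promoter.

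The strongest snoRNA region was at T21B4.20, chrII:12518814-12519301, with a pooled signal of 1609 and pooled rank 16. Its signal was 679 in replicate 1 and 929 in replicate 2, where it ranked 20 and 16. The summit lay 62 bp upstream of the snoRNA and 165 bp from the start of srh-70, a gene of a chemoreceptor family, so the data do not assign it to either gene. In its summit window of 101 bases on the snoRNA's strand, ACGT and TGACG on either strand are in capitals.
T21B4.20, chrII:12518974-12519074: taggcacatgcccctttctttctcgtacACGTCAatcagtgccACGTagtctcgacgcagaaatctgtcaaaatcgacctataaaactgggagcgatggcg

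The region next in order, nearest to C06A1.9 at chrII:10563423-10563705, had signals of 442 in replicate 1 and 559 in replicate 2, with ranks 35 and 33. C06A1.9 lies in an intron of cdc-48.1, which encodes an AAA ATPase that extracts ubiquitinated proteins, and the summit was 156 bp from the cdc-48.1 start and 499 bp from the snoRNA. It was thus at the very edge of the distance limit, and a coding promoter was nearer. The region at T15H9.8, in an intron of dnj-20, a DnaJ-type chaperone gene, had 263 and 526 and ranked 72 and 39. Its summit lay 397 bp downstream of the snoRNA's 5′ end.

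ZK994.7, in an intron of the peroxidasin gene pxn-1, had 189 and 200 and ranked 117 and 181, with the summit 5 bp upstream of the snoRNA and 5685 bp from the nearest coding start. ZK20.9, outside coding genes, had 145 and 245 and ranked 195 and 127, with the summit 50 bp inside from the 5′ end. Both regions were thus at the snoRNA and not at a coding start. The ZK994.7 window has TGACG near its start on the snoRNA's strand and no ACGT.
ZK994.7, chrV:8500524-8500624: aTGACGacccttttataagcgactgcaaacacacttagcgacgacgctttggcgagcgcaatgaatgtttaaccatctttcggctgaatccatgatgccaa

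F48A9.6 lies in an intron of let-607 itself, on chromosome I. Replicate 1 gave this region a signal of 185 and rank 122, and replicate 2 gave it 256 and rank 118. The worms carried this locus on the fosmid transgene as well, and the region was 1 of a run of 12 optimal regions there, so its signal cannot be told apart from a gain in copies. Without the 2 regions of this run the optimal share of snoRNA regions was 25.8%.

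At the SL2 RNA genes the strongest region was at sls-2.4 on chromosome I, at 212 in replicate 1 (rank 92) and 159 in replicate 2 (rank 236). The region at sls-2.1 had 131 and 135 and ranked 237 and 316, with the summit 39 bp upstream, inside the lower-case stretch shown above. The region at sls-2.2 had 147 and 90.2 and ranked 187 and 695, with the summit 113 bp downstream of the 5′ end. In replicate 2 this region was weaker in rank than the other two, while all of them were among the strongest 1488 regions of each replicate.

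A further region at sls-2.1 lay 212 bp away and shared its replicate 2 region with the first, so the pair is not independent in that replicate. At sls-2.8 the signal was 88.1 and 121 for the downstream summit, and the other summit, 4 bp downstream of the 5′ end, had no region in replicate 1 and 126 in replicate 2. The downstream summit of sls-2.8 lay in a coding exon 26 bp from the start of Y75B8A.23, so a coding start was nearer than the snRNA's 5′ end. The regions at sls-2.15 and sls-2.5 were weaker, with pooled signals of 150.0 and 115.

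The upstream stretches of sls-2.1 and sls-2.2 had the same base at 60 of 70 positions, and those of sls-2.15 and sls-2.5 at 46 of 70. Between sls-2.1 and sls-2.8 the count was 26 of 70. Over all 5 stretches 14 of 70 columns were the same. The first 22 bases were those of sls-2.1 in 4 of the 18 annotated SL2 RNA genes, counting sls-2.1. These stretches were set side by side without gaps, and sls-2.4, the gene with the strongest region, was not among them.

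Other snRNA genes with optimal regions included W05B2.8 and sup-6, a gene of the U1 snRNA, a core part of the spliceosome. The W05B2.8 region, in an intron of dhc-4, reached 140 in replicate 1 (rank 212) and 136 in replicate 2 (rank 311). W05B2.8 has 13 identical copies in the genome, so reads from it cannot be placed with certainty. In all, 17 snRNA regions, 3 of them optimal, had a nearest gene with an identical copy. The sup-6 gene lies in an intron of F58G1.7 and had a pair of optimal regions 222 bp apart, flanking the gene. The stronger one, near its 3′ end, had 126 and 114 and ranked 258 and 456, and the one at its 5′ end had 105 and 52.0 and ranked 373 and 2226.

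Genes with a pair of optimal summits were T21B4.20, F55A11.10, sls-2.1, sls-2.8 and sup-6, and the summits of a pair were 199 to 222 bp apart. At T21B4.20 both summits lie in 1 interval that is listed for each of them, and at the other genes the paired intervals overlap.

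Among miRNA regions the strongest was at mir-53, chrIV:11027614-11027905, where replicate 1 gave a signal of 281 and replicate 2 gave 362, with rank 67 in both. Its summit lay 75 bp upstream of the hairpin and 1419 bp from the nearest coding start. The window holds neither ACGT nor TGACG, so nothing is in capitals.
mir-53, chrIV:11027716-11027816, minus strand: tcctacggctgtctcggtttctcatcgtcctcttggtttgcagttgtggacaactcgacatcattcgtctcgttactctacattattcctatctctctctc

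The mir-51 hairpin lies close by, and its region had 68.8 and 101 and ranked 937 and 558. Another gene of the same seed, mir-54 on the X chromosome, had 57.7 and 95.1 and ranked 1432 and 628. Of the 6 genes with the seed ACCCGUA, mir-51 to mir-56, 3 were thus the nearest gene of an optimal region and 5 that of a pooled one. A summit nearest to 1 of these genes can also lie within 500 bp of another, as the mir-54 summit does for mir-56. This family acts broadly in C. elegans development and is needed for embryos to survive.

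The region at mir-80, chrIII:8865493-8865623, reached 129 in replicate 1 (rank 241) and 182 in replicate 2 (rank 202). The summit lay 168 bp upstream of the hairpin and 11593 bp from the nearest coding start, farther than at any other of the 6 strongest miRNA regions except mir-229. The window has 1 TGACG, on the strand opposite to mir-80.
mir-80, chrIII:8865485-8865585, minus strand: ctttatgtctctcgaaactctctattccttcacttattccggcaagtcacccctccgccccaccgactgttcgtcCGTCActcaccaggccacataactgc

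Of the 6 genes with the mir-80 seed GAGAUCA, which include mir-81 and mir-82, 1 was the nearest gene of an optimal region and 4 that of a pooled one. The related mir-58.1, an abundant miRNA whose seed GAGAUCG is printed in capitals above, had 76.2 and 96.4 and ranked 766 and 612, with the summit 495 bp upstream. It was thus near the distance limit.

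The other strong miRNA regions had less studied hairpins as their nearest genes. At mir-8186.1 the signal was 181 and 172, with ranks 127 and 221. Its summit lay in a coding promoter window, 311 bp downstream of the hairpin and 529 bp from the gmeb-1 start. The mir-5595 hairpin lies on the opposite strand in an intron of the chromatin remodelling gene nurf-1. Its region had 125 and 110, with ranks 260 and 488. The nurf-1 start was 298 bp from the summit. At mir-5549 the signal was 80.01 and 111, with ranks 686 and 471, and rfc-4, which encodes a subunit of the clamp loader of DNA replication, started 154 bp away. At mir-229, in an intron of gcn-1, the signal was 68.7 and 118, with ranks 938 and 420. The summit lay 418 bp upstream of the mir-229 hairpin, and the nearest coding start was 20089 bp away.

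Of the heterochronic miRNAs, which time larval development, let-7 had a pooled signal of 57.1, mir-48 of 89.8, mir-241 of 57.5 and lin-4 of 48.2, none of them optimal. No region lay within 500 bp of mir-84, another member of the let-7 family, or of lsy-6, which sets the asymmetry of a pair of taste neurons. The region near mir-237, with a signal of 108, also lay near a tRNA gene and was left out by the rule. All of these signals were above the pooled median of 45.2 and below the lowest optimal value of 111.

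The muscle miRNA mir-1 had 49.0, the embryonic mir-35 had 54.8, and mir-71, which acts in lifespan, had 73.9. The values were 74.7 at mir-34, 37.8 at the neuronal mir-124 and 48.1 at the glial mir-228. Of 16 miRNA genes named in this way, 3 had an optimal region (mir-51, mir-58.1 and mir-80), beside 7.66% of all miRNA genes. The 16 were listed with earlier results of these data known, so this count is not read as differing from that share. The values are those of the strongest region at each gene. At mir-241, mir-35, mir-34, mir-124 and mir-228 that region was found in replicate 1 only, and at lin-4 and mir-71 in replicate 2 only. A weaker region at mir-71 (52.2) was found in replicate 1 only, and one at mir-228 (46.5) in both.

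Most regions near small RNA genes were found in both replicates, more often than pooled regions in general. A pooled region counted as found where its summit lay inside a region of the replicate list. This held in both replicates for 61.6% (305 of 495), beside 41.0% of all pooled regions. The share was 64.0% for snoRNA, 64.3% for snRNA and 54.4% for miRNA regions. The strongest 1488 regions of replicate 1 are 4.96% of its list, and those of replicate 2 are 5.62% of its list. Of the 495 regions, 125 (25.3%) lay at one of these in replicate 1 and 110 (22.2%) in replicate 2, beside 5.45% and 5.66% of all pooled regions. This held in both replicates for 85 of the 495, beside 1047 of all 30000 pooled regions. Pooled regions that lie over 1 replicate region share its rank.

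The median rank of found snoRNA regions was 3074 in replicate 1 and 3328 in replicate 2, that of snRNA regions 4532.5 and 4643, and that of miRNA regions 5406 and 5243. Over all pooled regions the medians were 10873 and 9911.5. Across the 305 regions found in both replicates the Spearman correlation of signal was 0.672, as a description over regions that share both libraries. Of the 108 optimal regions 106 were found in both, but the IDR threshold was itself set on both replicates.

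Among optimal regions, the replicate that gave the higher rank more often was not the same for each biotype. Of 77 optimal snoRNA regions found in both, 48 ranked higher in replicate 1, with median ranks of 570 and 744.5. The same was true of 10 of 14 snRNA regions and of 102 of 141 regions near tRNA genes. It was true of 4 of 15 miRNA regions, with median ranks of 766 and 522, and of 522 of the 1232 other optimal regions. The lists differ in length (30000 and 26493), so these counts are read beside each other and not as a change between replicates. Paired summits with the same replicate ranks, as at T21B4.20 and F55A11.10, are each counted. With 1 library per replicate, a difference between these libraries and one between the worm cultures cannot be told apart.

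**Figure D5:**
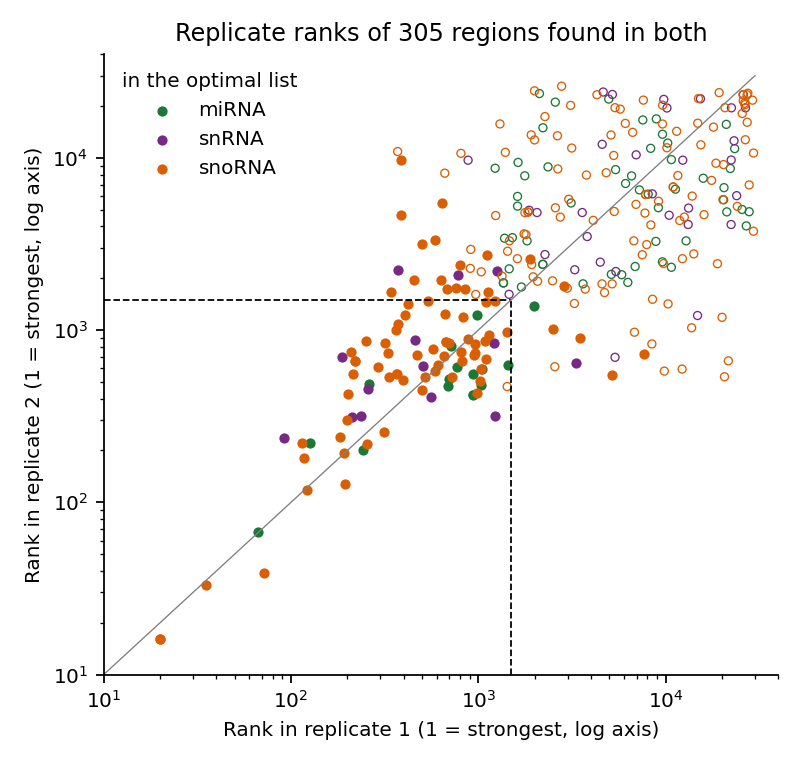
Rank of each of the 305 regions found in both replicates, in replicate 1 (x, log axis) and in replicate 2 (y, log axis), where 1 is the strongest. Filled points are in the optimal list, open points are not, dashed lines mark rank 1488 and the grey line equal ranks. The mir-53 region lies on the line at 67 and 67, and 48 of 77 optimal snoRNA regions lie above it.

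The summit windows of optimal snoRNA regions held fewer of the letters found in other optimal regions. Motifs were searched on both strands in the 101 bases centred on the summit. The palindrome CACGTG was in 0 of 78 windows (interval up to 4.69%), beside 9.22% of 1237 optimal regions near no small RNA or tRNA gene and 3.14% of all pooled regions. TGATAA, which is of the kind bound by GATA factors, was in 1.28%, beside 17.0% and 9.20%. AGACGCAG was in 1.28%, beside 6.63% and 1.61%. ACGT, the core shared by many bZIP sites, was in 20.5% (16 of 78, interval 13.0 to 30.8), beside 37.4% and 23.2%, and TGACG was in 14.1%, beside 24.4% and 14.1%. The snoRNA windows were thus near the level of all pooled regions for ACGT and TGACG, and for ACGT below the optimal regions elsewhere. For TGACG the interval (8.06 to 23.5) overlapped that of the optimal regions elsewhere (22.1 to 26.9). The same held for AGACGCAG (0.227 to 6.91, beside 5.37 to 8.15).

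The longer sites were rare. TGACGTGG was in 0 of 78 windows, beside 2.26% and 0.623%, and the CRE palindrome TGACGTCA was in 1 of 78 (1.28%), beside 0.808% and 0.790%. Each match to these or to CACGTG also counts as an ACGT match. Of the 15 optimal miRNA windows 5 held ACGT and 1 held CACGTG, and of the 15 optimal snRNA windows 1 held ACGT and 0 held CACGTG.

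The B box core GTTCGANNC went the other way. It was in 9 of 78 optimal snoRNA windows (11.5%, interval 6.19 to 20.5), beside 1.21% of the optimal regions near no such gene, 41.3% of those near tRNA genes and 1.48% of all pooled regions. In 8 of these 9 it lay on the snoRNA's strand, and in the 7 whose sequences open the account it began 5 to 24 bp before the annotated 5′ end. The others were C51F7.4, where it lay inside the snoRNA gene, and F07A11.15, where it lay on the opposite strand. Among the other biotypes F54D8.7, an snRNA gene, and mir-51 had the core 111 and 51 bp before the gene. None of these regions lay within 500 bp of an annotated tRNA gene, by the rule.

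A pair of letters in tRNA-like order was searched after these sequences had been seen, as GGNNNANNG followed on the same strand by GTTCGANNC, with 25 to 75 bp between the starts, within 100 bp of the summit. It was in 11 of 300 snoRNA windows. Because it was composed from optimal snoRNA sequences, how many of these 11 were optimal says nothing further. The pair was in 0.408% of the regions near no small RNA or tRNA gene, and 5 of these 118 were optimal (4.24%), near the share in the rest of them (4.27%). Near tRNA genes 180 of 560 windows held it. Within the 100 bp upstream of snoRNA genes, 38 of 64 summits without the pair were optimal (59.4%), against 31 of 225 without it elsewhere (13.8%). The order by position was thus also present without this strict pair. Whether those summits lay at looser tRNA-like letters was not tested.

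The 7 snoRNA regions with the core just before the gene had pooled signals between 118 (M106.6) and 210.4 (Y43F8C.22). Replicate 1 ranked 6 of the 7 higher, most at M106.6, with 641 against 5503, and at F32E10.10, with 386 against 4666. The exception was Y43F8C.22, which ranked 499 and 449. Of the 78 optimal snoRNA regions 2 (2.56%) lay within 500 bp of a tRNA pseudogene annotated by RefSeq, beside 0.269% of all optimal regions, and with all regions near such pseudogenes left out the optimal share of snoRNA regions was 25.8%.

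The promoter windows of genes for proteins that make and process small RNAs were read beside those of all 19973 protein-coding genes, of which 4.81% (960) had an optimal region and 38.97% any pooled one. Of 9 miRNA processing genes 1 had an optimal region, ain-1, which encodes a GW182-type partner of Argonaute, with a signal of 234 and ranks 333 and 320. A further 6, among them the Drosha gene drsh-1 (46.7) and the Argonaute genes alg-1 (48.0) and alg-2 (79.3), had only weaker pooled regions, and pash-1 and dcr-1 had none. Of 17 annotated genes for snRNA transcription and 3′ processing, subunits of SNAPc and of the Integrator complex, 1 had an optimal region, ints-4, with 220 and ranks 379 and 507. Another 3 had only pooled regions. Of 6 genes of snoRNA-protein particles, which include fibrillarin (fib-1, 53.2) and dyskerin (dkc-1, 72.9), 0 had an optimal region and 6 had a pooled one. With 6 to 17 genes a list, these counts are not read as differing from the share over all coding genes.

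The distance limit cut through regions below the optimal list, apart from C06A1.9. The few just inside it had higher signals than the few just outside. Just inside it were mir-356.1 at 498 bp (signal 52.8), mir-35 at 499 bp and mir-52 at 500 bp (70.6). Just outside were ZK897.3 at 501 bp (33.5), T10H4.17 at 501 bp (43.9) and C01B10.48 at 503 bp (48.7).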

How the data were processed

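The deposited files hold regions on ce11 for each replicate, for both pooled, and the optimal IDR list. Each region has a signal value, a score that the authors' peak caller gave. The aligner, the caller and the formula of this value: not given in the sources used here.

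Summits were set against Ensembl release 115 (WBcel235). Symbols (756 of 758 small RNA gene IDs matched), mature miRNAs and sequence came from RefSeq on the same build. A region took the biotype of its nearest gene. Named genes were those of the 6 strongest regions per biotype, 16 fixed miRNA genes and 3 lists of protein genes. Others were singled out after their values were seen. With 1 group there was no contrast between conditions and no p-value was computed. Members, lists and motifs were chosen with earlier results of these data known. Alternatives changed the distance, the tRNA rule, the promoter window, the threshold, the summit window and the replicate lists used. Functions were tested on simulated positions. Python 3.11.15, pandas 2.3.3 and SciPy 1.17.1 were used.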

Additional observations from a re-analysis of the deposited data

How the results depend on the processing

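The share of regions near small RNA genes in the optimal list fell with the distance allowed, from 27.2% within 250 bp to 21.8% within 500 bp and 16.2% within 1000 bp, and for snoRNA regions from 33.3% to 26.0% and 20.2%. The number of regions was 765 within 1000 bp. With only the strongest 744 regions of the optimal list the share was 12.9% over all, 12.9% for snRNA and 14.0% for snoRNA regions, beside 2.48% of all pooled regions. The share found in both replicates was 67.8% within 250 bp and 55.9% within 1000 bp, beside 41.0% of all pooled regions. It was 50.7% where the replicate summit had to lie within 100 bp, a setting with no share over all pooled regions given here. Using each replicate list alone, the median signal was between 32.5 and 35.2, beside 25.4 and 27.6 over all regions of these lists. The share found in the other replicate was between 63.2% and 66.4%, beside 41.05% and 45.2% over all regions of these lists. A promoter window of 500 bp upstream to 100 bp downstream held 22.2% of the summits, also without a share over all pooled regions. These are 15 of 76 recomputed values, and the other 61 moved less than the counting interval or 1.5 times. Of 32 recomputed motif shares 13 moved by more than that. Leaving out regions near tRNA pseudogenes, in the run at let-607 or with the tRNA-like pair was added after the data were seen. For rRNA regions no alternative gave a value, since none had a member. No paired analysis was possible because all samples form 1 group. Unknown depth limits how far a missing or weak region can be read.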
